A study of Arabidopsis thaliana with 4 samples.

Results

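This account covers 20 array probes for genes of plant calcium signalling, 15 of the IQD family, 4 of the calmodulin-like (CML) family and the locus AT4G26470, in Arabidopsis thaliana endosperm at 4 days after pollination. Members were taken by gene symbol from the array's gene table (IQD, CML, CAM, CPK, CDPK, CIPK, CBL, CRK or CNGC with a number, or that locus), and had to hold a value on all 4 arrays. That left 20 of 26 probes found by symbol, each for a different gene, out of 19449 probes with values on all arrays. No probe in the table carried a symbol of calmodulin itself, of a calcium-dependent kinase (CPK or CDPK), of CIPK, CBL, CRK or CNGC, so the results concern calcium sensors and calmodulin-binding scaffold proteins and hold no kinase. RefSeq lists 33 genes with an IQD symbol, of which 18 had a named probe, and 34 with a CPK or CDPK symbol, of which 0 had one. AT4G26470 has no name in either gene table, and it was added with its high ratio in these data already known, so its values are a description.

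Endosperm, the nutritive tissue around the embryo, was cut from silique sections by laser, and 3 such samples were each compared on 2-colour oligonucleotide arrays with 1 shared reference RNA. The reference was scraped from the tissue left on a slide after the endosperm had been removed, although another label calls it whole silique. Endosperm of replicate 1 was labelled with Cy3, that of replicate 3 with Cy5, and replicate 2 went on 2 arrays, once in each dye. The sources used here give no genotype, ecotype or number of plants per sample, and p-values therefore measure only the spread between these samples.

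In plant cells a rise in cytosolic calcium is read by proteins with EF-hand motifs. Calmodulin and the CML proteins change shape when they bind calcium and then bind other proteins. IQD proteins are plant-specific, carry a domain with IQ motifs that binds calmodulin, and many of them sit on microtubules, at the plasma membrane or in the nucleus, where they are thought to act as scaffolds in cell shape and division. The study's question was which transcripts set dividing endosperm apart from the rest of the silique.

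Each value below is a log2 ratio of endosperm over reference, so that 1 is a doubling and 0 an equal level. Endosperm is the likely numerator, since the median of 12 measured endosperm marker genes lay between 1.70 and 2.09 on the arrays. The sources used here state neither the numerator nor the log base, which is taken as 2. All folds, the counts past 2-fold and the 1.5-fold test rest on that base, whereas the p-values for a difference from 0 do not depend on it. With the opposite numerator every higher and lower below would trade places. The arrays held values for 21829 to 23171 probes and correlated with r from 0.87 to 0.92 over the compared probes, which are not independent replicates. Of 12 endosperm markers, the list that set this direction, 11 were higher. Of 3 seed coat markers 1 was lower, the 1 measured silique wall marker, ALC, was lower (-2.40), of 4 green tissue markers 1 was higher and 3 were lower, and no embryo marker was measured (0 of 6). The part of these other tissues in the members' ratios was not tested. The arrays measure RNA from a tissue, so fewer cells of a type and less RNA per cell cannot be told apart.

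The members moved in both directions, and most of them were lower in endosperm. The test called 5 of the 20 members higher and 11 lower, and 4 had no call (limma, Benjamini-Hochberg adjusted p under 0.05 over all 19449 probes). Among all probes 32.0% were higher and 25.5% were lower, or 57.5% together. Without AT4G26470 the counts were 4 higher and 11 lower of 19. The median log2 ratio of the members was -0.57, against 0.11 for all probes. Of the 20 members 13 lay below 0, against 8409 of all 19449 probes. All 4 arrays had 1 sign for 16 of the 20 members, where 71.7% of all probes had 1 sign. The members were spread widely, from -1.50 (IQD24) to 3.14 (AT4G26470), with a median SD between replicates of 0.26 that was close to that of all probes (0.23).

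**Figure D1:**
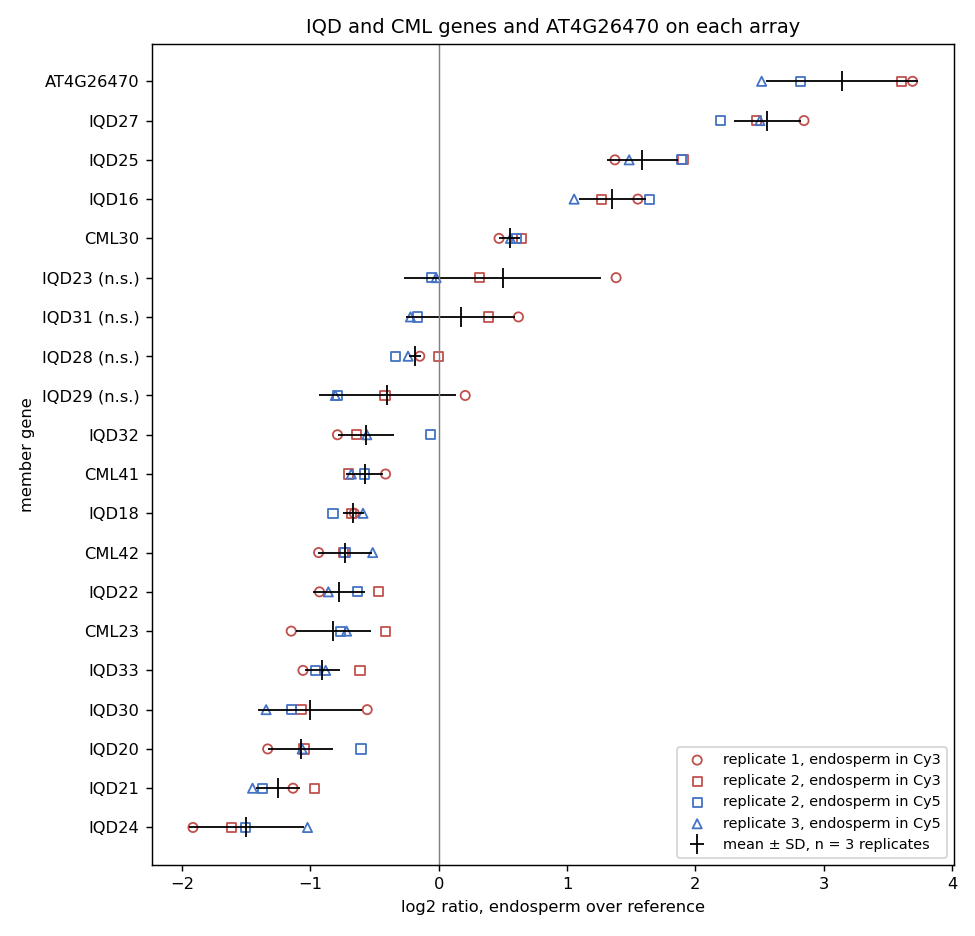
Log2 ratio of endosperm over reference (horizontal axis) for each of the 20 members (rows, ordered by mean) on each of the 4 arrays, with symbols for the replicate, colours for the dye of the endosperm sample and black bars for the mean and SD of the 3 replicates; n.s. marks the 4 members that did not pass. AT4G26470, IQD27, IQD25 and IQD16 stand above 1 on every array, and 11 members lie below 0 on every array.

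The 4 measured CML genes, which encode calcium sensors, split into 1 higher and 3 lower, where 32.0% and 25.5% of all probes were. AT4G26470, which the plan had grouped with the CML genes, was counted apart from them. It was higher (3.14), so the split of the planned group is less one-sided. CML30, whose protein has been found in mitochondria, had log2 ratios of 0.47 (replicate 1), 0.65 and 0.61 (replicate 2 with Cy3 and with Cy5) and 0.56 (replicate 3). All 4 arrays were above 0 and close together, and CML30 was 1.47-fold higher in endosperm (0.55 ± 0.08, SD, n = 3, limma adjusted p = 0.00949). CML30 was the CML gene with the smallest spread.

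CML23, which acts with a close relative in the timing of flowering, was the lowest of the CML genes. Its log2 ratios were -1.15 (replicate 1), -0.42 and -0.77 (replicate 2 with Cy3 and with Cy5) and -0.72 (replicate 3), and the mean was -0.82 ± 0.29 (1.76-fold lower, limma adjusted p = 0.00551). All 4 arrays were below 0, with replicate 1 the lowest. CML42, known from trichome branching and defence against herbivores, was at -0.73 ± 0.21 (1.66-fold lower, limma adjusted p = 0.00559), between -0.93 and -0.51 on the arrays. CML41, which acts at plasmodesmata in immune responses, was at -0.58 ± 0.14 (1.49-fold lower, limma adjusted p = 0.00997), between -0.70 and -0.41. The calls of CML30 and CML41 were lost without replicate 2 (0.52, adjusted p = 0.0802, and -0.55, adjusted p = 0.0744), and none of the 4 passed a test against a fold change of 1.5.

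The 15 IQD genes held 3 that were higher, 8 that were lower and 4 without a call, around a median log2 ratio of -0.57. The 3 that were higher were all more than 2-fold up, while 4 of the 8 that were lower were more than 2-fold down. Over all probes 32.0% were called higher and 25.5% lower, while 13.0% were more than 2-fold up and 13.9% more than 2-fold down.

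IQD27 had the highest ratio of the family. It was at 2.85 (replicate 1), 2.48 and 2.19 (replicate 2 with Cy3 and with Cy5) and 2.50 (replicate 3), with a mean of 2.56 ± 0.26 (5.90-fold, limma adjusted p = 0.000143). Every array showed a strong excess in endosperm, and the gene ranked 75 from the top of all 19449 probes. IQD25 followed at 1.58 ± 0.28 (limma adjusted p = 0.000468), between 1.37 and 1.90 on the arrays. IQD16 was at 1.35 ± 0.26 (2.56-fold, limma adjusted p = 0.000734), between 1.06 and 1.64. The 95% interval of IQD27 (2.20 to 2.92) lay above that of IQD25 (1.22 to 1.95), whereas the intervals of IQD25 and IQD16 (0.99 to 1.71) overlapped. Differences between these genes were not tested.

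IQD24 was the lowest member of all. Its log2 ratios were -1.91 (replicate 1), -1.61 and -1.51 (replicate 2 with Cy3 and with Cy5) and -1.02 (replicate 3), and the mean was -1.50 ± 0.45 (2.82-fold lower, limma adjusted p = 0.00132). All arrays were at least 2-fold below the reference, with replicate 1 the lowest and replicate 3 the highest. IQD21 came next at -1.25 ± 0.17 (2.38-fold lower, limma adjusted p = 0.000649) and varied less, from -1.45 to -0.97. IQD20, at -1.07 ± 0.25, and IQD30, at -1.003 ± 0.40, were about 2-fold lower (limma adjusted p = 0.00159 and 0.00475). IQD33 was at -0.91 ± 0.14 (limma adjusted p = 0.00173). The others that were lower, IQD22, IQD18 and IQD32, lay at -0.78, -0.67 and -0.57 (limma adjusted p = 0.00413, 0.0047 and 0.0151). IQD32 was between -0.79 and -0.56 on 3 arrays and at -0.06 on the Cy5 array of replicate 2, and on the Cy5 arrays alone it did not pass (-0.31, adjusted p = 0.183). Against a fold change of 1.5, IQD24, IQD21 and IQD20 were the 3 members still lower, where 13.0% of all probes were.

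**Figure D2:**
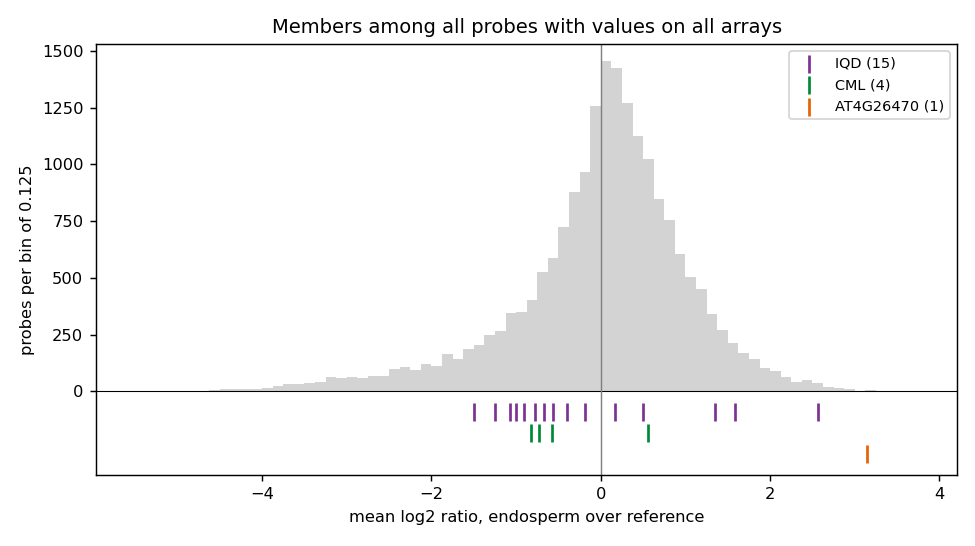
Number of probes per bin of mean log2 ratio (grey, all 19449 probes with values on all arrays), with coloured ticks under it for the means of the 15 IQD genes, the 4 CML genes and AT4G26470. AT4G26470 and IQD27 lie in the upper tail, while no member lies in the long lower tail beyond -1.50.

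The 4 IQD genes that did not pass were IQD23, IQD31, IQD28 and IQD29. IQD23 had the largest spread of the members: its log2 ratios were 1.38 (replicate 1), 0.32 and -0.06 (replicate 2 with Cy3 and with Cy5) and -0.02 (replicate 3). Replicate 1 was far above the others, and the mean of 0.50 ± 0.77 had a 95% interval from -0.21 to 1.20 (limma adjusted p = 0.183). IQD31 was at 0.62 (replicate 1), 0.39 and -0.16 (replicate 2 with Cy3 and with Cy5) and -0.22 (replicate 3), with a mean of 0.17 ± 0.42 and an interval from -0.28 to 0.63. The sign of IQD31 was that of the dye, with both Cy3 arrays above 0 and both Cy5 arrays below it. IQD29 was at 0.21 (replicate 1), -0.42 and -0.79 (replicate 2 with Cy3 and with Cy5) and -0.80 (replicate 3), with a mean of -0.40 ± 0.54 and an interval from -0.93 to 0.13. IQD29 was called lower under 3 other settings: without replicate 1 (-0.70, adjusted p = 0.00835), with only the Cy5 arrays (-0.80, adjusted p = 0.00589) and with a dye covariate (-0.45, adjusted p = 0.0231). Without replicate 1, IQD23 was at 0.06 and IQD31 turned to -0.05, neither of which passed. IQD28 stayed close to the reference on all arrays, between -0.34 and 0.00, with a mean of -0.18 ± 0.05 and the narrowest interval of these 4 genes (-0.47 to 0.10).

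AT4G26470 had the highest ratio of the members and ranked 10 from the top of all probes. Its log2 ratios were 3.69 (replicate 1), 3.60 and 2.82 (replicate 2 with Cy3 and with Cy5) and 2.52 (replicate 3). Both Cy3 arrays lay above both Cy5 arrays, and the lowest array was still more than 5-fold above the reference. The mean was 3.14 ± 0.59 (8.81-fold), and its SD was larger than that of 92.7% of all probes.

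No member differed between the dyes beyond the threshold. In a fit with a dye term none of the 20 members and 0.00% of all probes passed (limma adjusted p = 0.255 for AT4G26470), and 3 members, against 9.40% of all probes, had an unadjusted p under 0.05. These were AT4G26470, IQD31 and IQD29 (limma unadjusted p = 0.00322, 0.012 and 0.0378). The difference between the Cy5 and the Cy3 arrays was -0.98 for AT4G26470, -0.89 for IQD23, -0.70 for IQD31 and -0.69 for IQD29. Part of each difference comes from the 2 arrays of replicate 2, which share their RNAs. Within that pair the differences of the same genes were -0.79, -0.38, -0.56 and -0.37, while IQD32 and IQD20 differed in the other direction (0.58 and 0.44). The SD of this difference over all probes was 0.42. IQD24 went the other way, with means of -1.76 on the Cy3 and -1.26 on the Cy5 arrays. In all 13 of 20 members had the higher mean on the Cy3 arrays, as did 9723 of all 19449 probes. Replicates 1 and 3 were each labelled with 1 dye, so their difference and the dye cannot be told apart outside replicate 2.

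**Figure D3:**
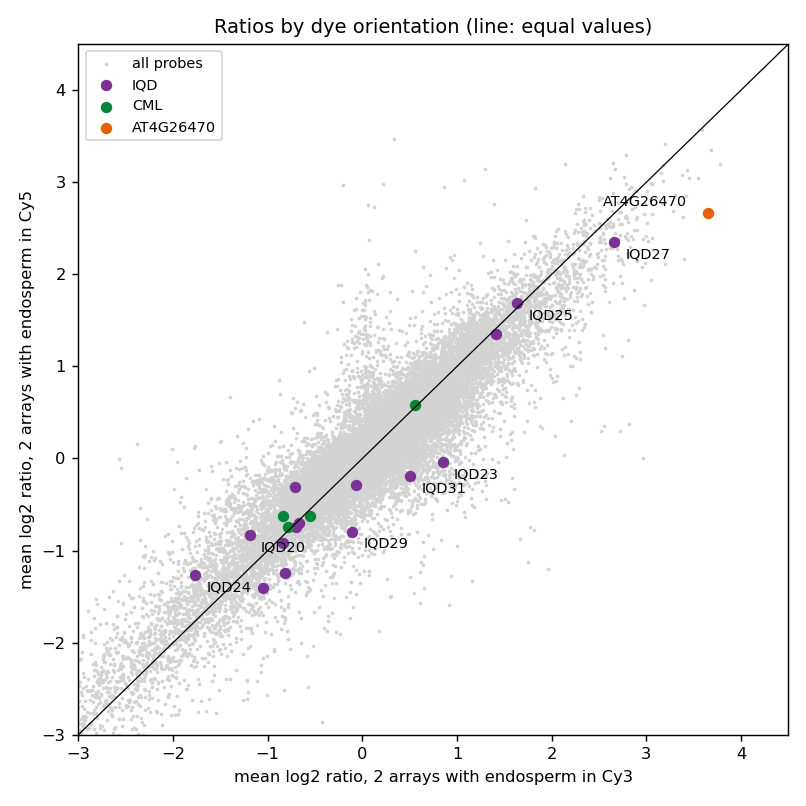
Mean log2 ratio on the 2 arrays with endosperm in Cy3 (horizontal) against that on the 2 arrays with endosperm in Cy5 (vertical), for the members (coloured) and all probes (grey); the line marks equal values, and probes beyond the range of the axes are not drawn. AT4G26470, IQD23, IQD31 and IQD29 lie below the line (differences of -0.98 to -0.69), while IQD25 and CML30 lie on it.

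Calls of 7 members held under each of 12 other settings: AT4G26470, IQD27, IQD25 and IQD16 as higher, the first of these as a description, and IQD24, IQD21 and IQD20 as lower. Most of the 12 calls lost elsewhere were lost against a fold change of 1.5, under which 4 members were higher and 3 were lower (12.2% and 13.0% of all probes). The 4 were AT4G26470, which was added with its high ratio known, and IQD27, IQD25 and IQD16 among the other 19 members. Calls held under all 12 settings were not counted over all probes, where they cannot exceed 12.2% and 13.0%.

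**Figure D4:**
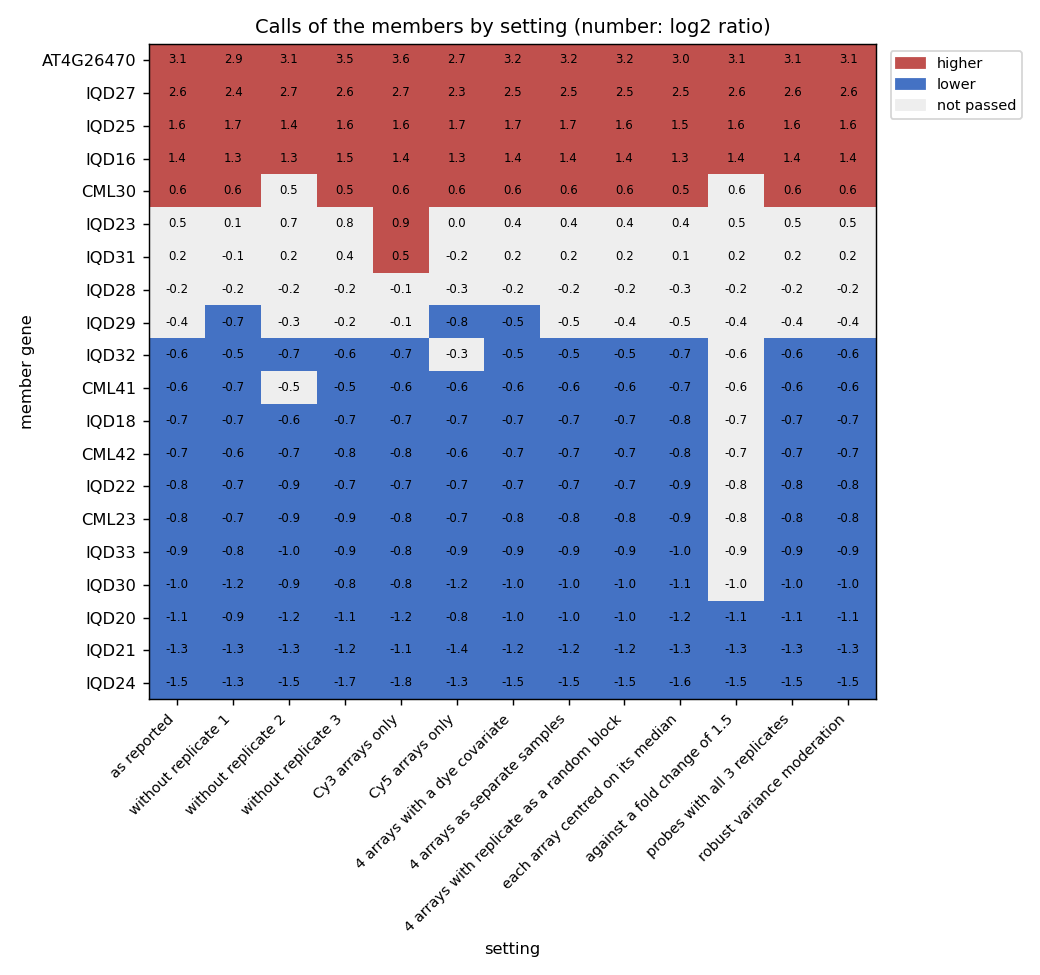
Calls of the 20 members (rows) under the reported test and 12 other settings (columns), coloured by direction at an adjusted p under 0.05, with the log2 ratio printed in each cell. AT4G26470, IQD27, IQD25 and IQD16 are higher and IQD24, IQD21 and IQD20 lower in every column.

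Other genes of calcium signalling were taken from a list of 79 loci for transport, storage, calcium-dependent transcription and further calmodulin-binding or EF-hand proteins, of which 19 were measured by 20 probes. The test called 3 of these probes higher and 7 lower, leaving 10 uncalled, and their median log2 ratio was -0.21. Over all probes 32.0% were higher and 25.5% lower, or 57.5% together, with a median of 0.11, so the share of the list that was called is near that of all probes. Glutamate receptor-like channels, which admit calcium and other cations, were the best covered group, with 1 higher, 2 lower and 5 not passing of 8. GLR3.6, a channel of wound signalling between leaves, was the lowest of them at -1.12 ± 0.24 (2.17-fold lower, limma adjusted p = 0.00126), and all 4 arrays were below 0. GLR2.7 was at -0.40 ± 0.08 and GLR3.5 at 0.40 ± 0.17 (limma adjusted p = 0.0309 and 0.0384). Leaving out any 1 replicate ended both of these calls (limma adjusted p from 0.0518 to 0.187 for GLR2.7 and from 0.0852 to 0.15 for GLR3.5), as it did for AT1G67310 below (0.0816 to 0.209).

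Genes of calcium stores did not pass (0 of 4), where 57.5% of all probes did. Their means lay between -0.22 (CRT1b, a calreticulin, which buffers calcium in the endoplasmic reticulum) and 0.30 (CaS, a calcium-sensing protein of the chloroplast). CaS was called higher where the arrays of replicate 2 were kept apart, with the replicate as a random block (0.31, limma adjusted p = 0.0396), as 4 samples (0.32, adjusted p = 0.024) and with a dye covariate (adjusted p = 0.0294). The remaining loci have no name in the gene tables, and their place in the list is from general knowledge. AT2G46600, listed with the EF-hand proteins, had the largest difference of the list: it was at -3.15 (replicate 1), -3.08 and -3.22 (replicate 2 with Cy3 and with Cy5) and -3.07 (replicate 3). These 4 values were nearly equal, and the gene was 8.71-fold lower (-3.12 ± 0.04, limma adjusted p = 0.000125). In the same group of 5 probes for 4 genes, AT3G13600 was at -1.55 ± 0.23 and AT3G52870 at 1.38 ± 0.25. The 2 probes of AT2G26190 were at -0.62 ± 0.39 and -0.36 ± 0.14. In this group 1 probe was higher and 4 were lower, 2 of them for the same gene, where 32.0% and 25.5% of all probes were. Both calls of AT2G26190 were lost without replicate 1 (limma adjusted p = 0.063 and 0.11) and without replicate 2 (0.0939 and 0.174). Without replicate 3 the probe at -0.36 lost its call as well (limma adjusted p = 0.1055), while the probe at -0.62 kept it (0.009836). The 1 measured exchanger locus, AT5G17850, was at -0.58 ± 0.18 (limma adjusted p = 0.0118, and 0.0807 without replicate 2). Of 2 loci listed as calmodulin-binding transcription activators, AT1G67310 was at 0.37 ± 0.15 (limma adjusted p = 0.0459) and AT3G16940 did not pass, at -0.21 ± 0.12.

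**Figure D5:**
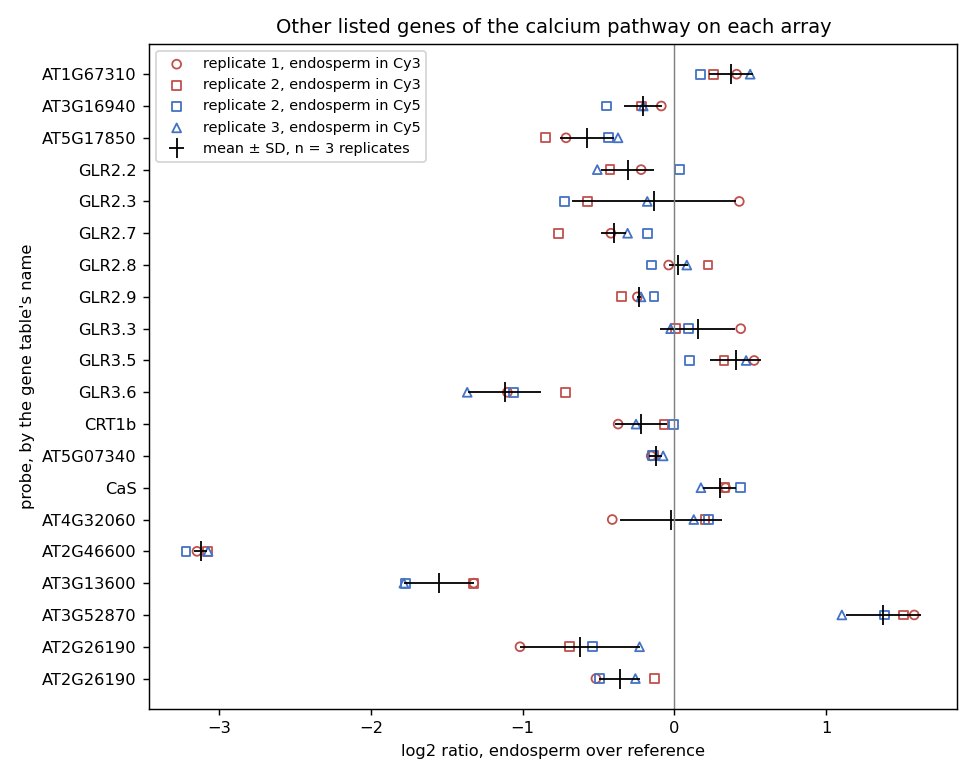
Log2 ratio of endosperm over reference on each of the 4 arrays for 20 probes of other listed calcium signalling genes (rows, by the gene table's name), with the mean and SD of the 3 replicates in black. AT2G46600 lies near -3.1 on every array, AT3G52870 is above 1 on every array, and the glutamate receptor-like channels lie mostly within 0.5 of 0, with GLR3.6 at -1.12.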

How the data were processed

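The only values used were the table the authors deposited: 1 log ratio of the 2 channels per probe and array, with some cells empty. The deposited values were taken as log2, which is an assumption: they have both signs and a mean near 0 on each array, and the log base was not stated. The scanner, the background correction, the normalization and the filter behind empty cells were not stated. Per the labels' protocols, both RNAs went through 2 rounds of in vitro amplification and were coupled to Cy dyes. Without intensities no filter on dim spots could be set.

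The gene table names 14539 of 26912 probes, and 14485 of these were matched by gene ID to RefSeq (TAIR10.1). RefSeq gave names, the order of genes, the family counts and the loci that tied marker and pathway genes to probes. The 2 arrays of replicate 2 were averaged, and limma 3.58.1 (R 4.3.3) compared the mean of 3 replicates with 0 (two-sided, eBayes, Benjamini-Hochberg over 19449 probes, adjusted p under 0.05). This leaves out the spread of the reference. The number of arrays limits the precision.

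Members and lists were chosen with earlier results of these data known. All CML genes were named, and of the IQD genes the called ones, up to 5 at each end, and the uncalled one nearest 0. IQD22, IQD18, IQD32, IQD23, IQD28 and IQD29 complete the counts and were picked with their values in view. From the pathway list up to 3 called genes per role were named, and CRT1b, CaS, AT3G16940 and AT2G26190 to complete groups. Alternatives were leaving out replicates, each dye alone, a dye term, the arrays of replicate 2 kept apart or as a random block (correlation 0.333, by moments), median centring, a fold change of 1.5, probes with fewer arrays and robust moderation.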

Additional observations from a re-analysis of the deposited data

How the results depend on the processing

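Of 240 member results (20 members under 12 settings), 220 kept their direction and their side of the threshold, 12 no longer passed, 5 newly passed and 3 changed sign. IQD31 changed sign without replicate 1 (-0.053), where leaving out other replicates gave up to 0.37. With only the Cy5 arrays IQD31 was at -0.19 and IQD23 at -0.038, and none of these 3 values passed. With only the Cy3 arrays both were higher (0.51 and 0.85, adjusted p = 0.0446 and 0.0311). The cause was not tested. Leaving out 1 replicate gave 4627 to 6157 of all probes higher and 3863 to 4855 lower. Among the members it gave 4 to 5 higher, 10 to 12 lower and a median from -0.64 to -0.55. That median was -0.62 with only the Cy5 arrays and -0.66 after median centring. Against a fold change of 1.5 the members lower fell to 3, and over all probes 2364 were higher and 2521 lower, in place of 6231 and 4957, since that test asks for a larger difference. Centring moved the split over all probes to 5415 higher and 5552 lower, and left 5 members higher and 11 lower. No paired analysis was possible because the arrays hold 1 group against a shared reference.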

Other observations

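Some probes with IQD or CML symbols fell outside the comparison for lack of values. CML43, a calmodulin-like gene known from defence responses, had no value in replicate 1 and was at 0.93 and 0.78 in replicate 2 (Cy3 and Cy5) and at 0.92 in replicate 3. CML38 had a value on 1 array alone, -0.19 in replicate 2 with Cy5. IQD15, IQD19, IQD26 and CML37 had no value on any array. AT1G76640, which RefSeq lists with the synonym CML39 and the array's table by locus alone, was at -1.27 in replicate 1, at 0.19 and 0.24 in replicate 2, and had no value in replicate 3.

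Genes next to a member in the genome were compared with it. Of 21 measured neighbours of 17 members, 3 were called in the same direction as the member and 8 in the opposite one. Over all 3997 adjacent pairs of measured genes, 19.7% were called in the same direction and 15.1% in opposite directions. Beside AT4G26470 (3.14), AT4G26480 was at -1.02 and AT4G26460 at 0.38, and beside IQD27 (2.56), IAA18 was at -0.37. The shares over all pairs and the members' counts (3 and 8 of 21) cannot be compared directly. Of the 20 members 16 were called, 11 of them lower, against 57.5% of all probes. The counts, from neighbours of a chosen set, were given no test.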
